A study of Mus musculus with 6 samples.

Results

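Transcription factors that build red blood cells were measured in whole mouse embryos lacking the reduced folate carrier RFC1 and in their RFC1+/+ littermates. The set comprised Gata1, Klf1, Nfe2, Zfpm1 and Gfi1b, whose best known blood roles lie in the erythroid and megakaryocyte lineages, and Tal1, Lmo2, Ldb1, Myb and Bcl11a, which act earlier or more broadly in blood. Every probe set annotated to 1 of these 10 gene symbols and to no other was taken, which gave 19 of the 45101 probe sets on the array and 10 of the 18194 genes with a probe set of their own. The first group is called erythroid-restricted here and held 6 probe sets, and the second is called upstream and held 13. This sorting rests on textbook roles, and several of the erythroid-restricted factors also work in platelet precursors.

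RNA came from 3 RFC1-/- and 3 RFC1+/+ embryos at embryonic day 9.5, with 1 embryo per array and 1 pair of littermates from each of 3 litters. The RFC1 knockout allele (mouse gene Slc19a1) had been moved from a hybrid C57BL/6J stock onto the inbred SWV background, and all dams, carriers of 1 knockout allele, received folic acid by subcutaneous injection at 25 mg/kg every day from the day after mating. The RFC1-/- embryos were labelled as having craniorachischisis, an open neural tube along the brain and spine, and no fusion of allantois with chorion, and the RFC1+/+ embryos as normal in both respects. Extraembryonic membranes had been taken off for genotyping. The deletion is present in every cell and only affected RFC1-/- embryos were sampled, so genotype and malformation cannot be told apart. The study describes RFC1-/- embryos on this dose as delayed in development by mid-gestation, with very few red cells in vessels and blood islands. Genotype and developmental delay are thus confounded as well. In whole embryos, fewer cells of a type and less RNA per cell cannot be told apart either.

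Red blood cells at this stage are primitive erythrocytes, born in the blood islands of the yolk sac and carried into the embryo with the circulation. GATA1 binds GATA motifs with its cofactor FOG1, the product of Zfpm1, and in erythroid cells it sits in a complex with TAL1, LMO2 and LDB1, while KLF1 binds CACC-type motifs in globin, heme and membrane genes. TAL1 and LMO2 are also needed before that step, in the first blood and vessel progenitors, and MYB maintains immature blood cells.

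The promoters of the 3 factors that fell and of Tal1, which lay higher in each RFC1-/- embryo than in any RFC1+/+ embryo, are shown to set their motifs side by side. The windows run from 250 bases before to 50 bases after a start site in the RefSeq annotation of GRCm38.p6, and 8 of the 10 genes had a window (11 windows in all). Capitals mark GATA words (AGATAA or AGATAG, and with another first letter TGATAA or TGATAG) and KLF words (CCNCNCCC), searched on both strands, so that a word on the other strand appears as its reverse complement. Klf1 lies on the plus strand, and its window is chr8:84901732-84902031. Gata1 lies on the minus strand, and its window is chrX:7967861-7968160, around a start site inside the annotated gene (chrX:7959260-7976663). Myb lies on the minus strand with the window chr10:21160935-21161234, and the Tal1 window is chr4:115056176-115056475 on the plus strand.
Klf1: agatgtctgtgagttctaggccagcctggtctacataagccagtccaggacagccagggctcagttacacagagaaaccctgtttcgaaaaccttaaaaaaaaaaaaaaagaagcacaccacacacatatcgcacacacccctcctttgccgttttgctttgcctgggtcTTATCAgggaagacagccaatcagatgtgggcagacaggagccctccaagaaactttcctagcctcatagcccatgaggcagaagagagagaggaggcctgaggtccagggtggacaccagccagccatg
Gata1: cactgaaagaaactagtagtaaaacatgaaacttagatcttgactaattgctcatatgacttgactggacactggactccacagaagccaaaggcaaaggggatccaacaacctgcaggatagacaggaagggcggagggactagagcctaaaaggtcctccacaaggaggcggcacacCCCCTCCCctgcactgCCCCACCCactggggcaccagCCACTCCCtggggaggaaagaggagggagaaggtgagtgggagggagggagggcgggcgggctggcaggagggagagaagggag
Myb: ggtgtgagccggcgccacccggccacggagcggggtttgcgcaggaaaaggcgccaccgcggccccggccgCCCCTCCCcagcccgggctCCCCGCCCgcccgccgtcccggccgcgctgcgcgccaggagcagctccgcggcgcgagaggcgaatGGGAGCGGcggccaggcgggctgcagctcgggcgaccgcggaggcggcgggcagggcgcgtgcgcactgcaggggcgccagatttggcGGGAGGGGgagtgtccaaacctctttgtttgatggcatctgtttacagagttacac
Tal1: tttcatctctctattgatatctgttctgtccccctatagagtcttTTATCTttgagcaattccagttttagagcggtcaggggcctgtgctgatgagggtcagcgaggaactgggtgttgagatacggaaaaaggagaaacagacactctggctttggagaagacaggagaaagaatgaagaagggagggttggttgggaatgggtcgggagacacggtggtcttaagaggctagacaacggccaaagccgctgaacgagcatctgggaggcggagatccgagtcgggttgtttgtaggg

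The Klf1 window held 1 GATA word, which began 80 bases before the start site, and no KLF word. The windows of Gata1 and Myb showed the opposite content, with 3 and 4 KLF words and no GATA word. In the Gata1 window the KLF words began 71, 55 and 34 bases before the start site. The Tal1 window held 1 GATA word, 205 bases before the start site, and no KLF word. A further Tal1 window, not printed, held 4 KLF words and no GATA word. GATA words were found in 4 of the 11 member windows and in 29.8% of all 32851 promoter windows. KLF words, which are frequent in GC-rich sequence, were found in 9 of the 11 and in 49.5% of all windows. E-box words (CANNTG, the TAL1 family motif) were found in 7 of the 11 and in 72.3% of all windows, and the NF-E2 core TGAGTCA in 0 of the 11 and in 5.20% of all. These are matches of letters in 300 bases and not binding sites. Nfe2 on chromosome 15 and Lmo2 on chromosome 2 have no window in the table used. The other members lie on chromosomes 2 (Gfi1b), 8 (Zfpm1), 11 (Bcl11a) and 19 (Ldb1).

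Array quality bears on all members alike. Median log2 values of the 6 arrays lay between 5.43 and 5.49, and the 15 pairwise correlations between 0.984 and 0.996. Values are log2 RMA expression, in which a difference of 1 is a doubling, and since probes differ in brightness the level of 1 gene was not compared with that of another. Olfactory receptor genes, most of which are silent outside the nose, gave a guide to the level of an unexpressed gene: the 95th percentile over their 43 probe sets was 5.15 and the median 3.94.

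Klf1, Gata1 and Myb fell in RFC1-/- embryos, and none of the other 7 factors changed at an adjusted p under 0.05. Each gene was read on its brightest probe set and tested within litters with limma. Among all genes tested the same rule called 1.65% lower and 3.67% higher, beside 3 of 10 members lower and 0 of 10 higher. By role, the count was 2 of 5 erythroid-restricted and 1 of 5 upstream factors. In 5 members all RFC1-/- embryos lay below all RFC1+/+ embryos (Gata1, Klf1, Nfe2, Gfi1b and Myb), against 13.4% of all genes, and in 1 member, Tal1, all lay above, against 12.8% of all genes. Over probe sets, 4 of 19 fell, against 0.882% of all probe sets. Without litter 1, 1 probe set passed, that of Klf1, while 3 of 10 genes passed where 1.95% of all genes were called. The share of all probe sets that passed without litter 1 was not counted. Without litter 3, Gfi1b and Lmo2 also passed, which made 5 of 10 genes, where 6.59% of all genes were called in place of 5.32%.

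**Figure D1:**
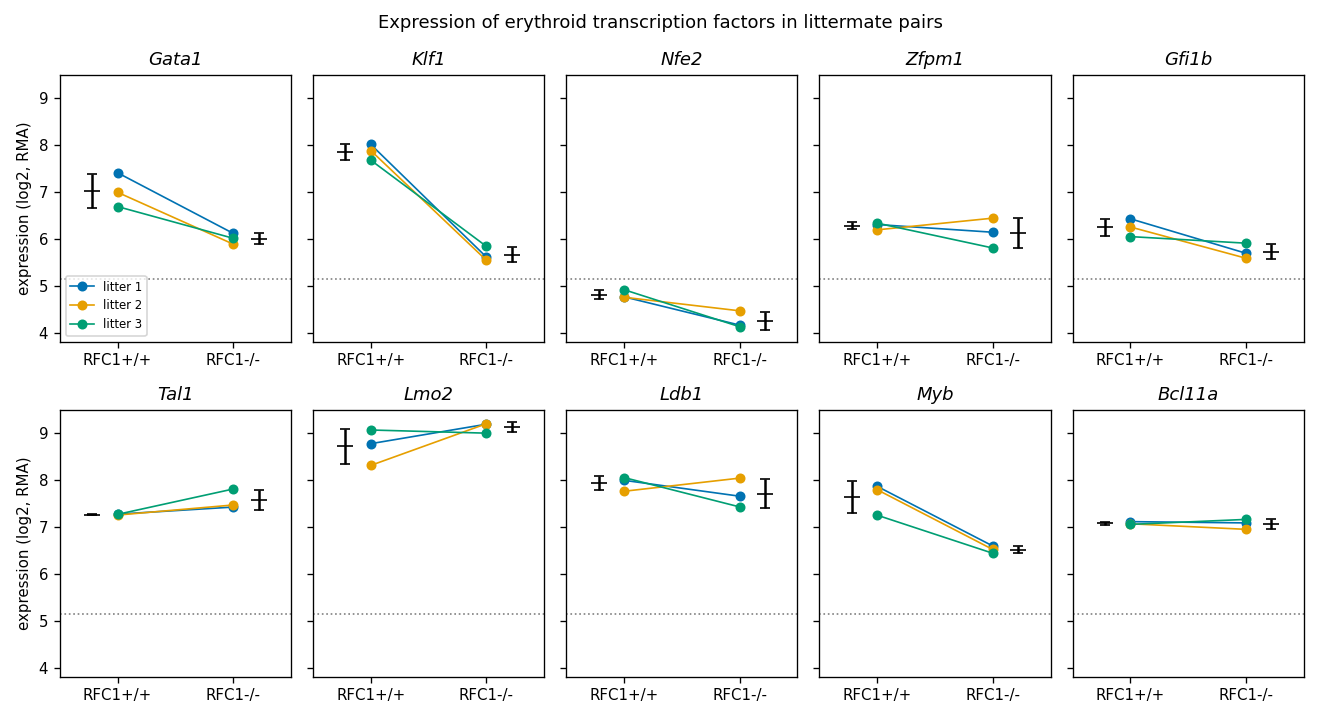
Expression of the 10 factors on their brightest probe sets, as log2 RMA values (vertical axis) in RFC1+/+ and RFC1-/- embryos, with 1 point per embryo, lines joining littermates, black bars for the mean ± SD of 3 embryos and a dotted line at 5.15, the 95th percentile of olfactory receptor probe sets. Klf1, Gata1 and Myb drop in each litter, the lines of Zfpm1, Lmo2, Ldb1 and Bcl11a do not run 1 way, and Nfe2 lies below the dotted line in all 6 embryos.

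Klf1, the activator of globin and other red cell genes, showed the largest difference of the 10. From litter 1 to litter 3, RFC1+/+ expression was 8.02, 7.89 and 7.68, while RFC1-/- expression was 5.62, 5.55 and 5.85. The groups lay far apart, with every RFC1-/- embryo more than 1 log2 unit below every RFC1+/+ embryo. Expression was 4.57-fold lower, which left 21.9% of the RFC1+/+ level (log2 difference -2.19 with standard error 0.14 and 95% interval -2.52 to -1.87, limma adjusted p = 0.00301). The RFC1-/- values of 5.55 to 5.85 were still above the olfactory 95th percentile.

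Gata1, the X-linked factor that drives both red cell and megakaryocyte programs, measured 7.41, 7.0 and 6.69 in RFC1+/+ embryos of litters 1 to 3. In the RFC1-/- littermates it measured 6.12, 5.89 and 6.02. The groups did not overlap, and the RFC1+/+ embryos were spread more widely (SD 0.36) than the RFC1-/- embryos (SD 0.12). Expression fell 2.03-fold (log2 difference -1.02, standard error 0.14, 95% interval -1.35 to -0.70, adjusted p = 0.0121 from limma). Adjusted over all probe sets, the limma p for Gata1 was 0.0150, and it was 0.109 without litter 1 and 0.0515 without litter 2. Sex differed within 2 of the pairs, read from Y-linked genes and Xist: the litter 2 RFC1+/+ embryo and the litter 3 RFC1-/- embryo were female and the other 4 male. In litter 1, where both embryos were male, Gata1 was 1.29 log2 units lower in the RFC1-/- embryo. With sex as a covariate, the limma adjusted p of Gata1 was 0.00680 over all probe sets. That fit was added after seeing the data and leaves 1 residual degree of freedom. It called 9.87% of all genes, against 5.32% without sex. The part of sex in the Gata1 difference was not tested further.

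Gfi1b, a repressor that red cell and platelet precursors both require, measured 6.43, 6.26 and 6.05 in RFC1+/+ embryos and 5.70, 5.59 and 5.91 in RFC1-/- embryos of litters 1 to 3. Every RFC1-/- value lay below every RFC1+/+ value, though in litter 3 the pair was only 0.14 apart. The log2 difference of -0.51 (standard error 0.14, 95% interval -0.85 to -0.18) did not pass (adjusted p = 0.0951 from limma). Without litter 3 it was -0.70 with an adjusted p of 0.0121. The adjusted p was 0.458 without litter 1 and 0.281 without litter 2.

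Nfe2 encodes the blood-specific subunit of the NF-E2 factor, which acts in globin regulation and in platelet release. Its values were 4.77, 4.76 and 4.92 in RFC1+/+ embryos and 4.17, 4.47 and 4.13 in RFC1-/- embryos. The groups did not overlap, but all 6 values were under the olfactory 95th percentile of 5.15. The log2 difference was -0.56 (standard error 0.12, 95% interval -0.85 to -0.27), and the adjusted p of 0.0529 from limma fell just outside the threshold. The adjusted p from limma was 0.0424 without litter 2, 0.238 without litter 1 and 0.0885 without litter 3.

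Zfpm1, the GATA1 cofactor gene, measured 6.31, 6.20 and 6.34 in RFC1+/+ embryos and 6.15, 6.45 and 5.81 in RFC1-/- embryos. The groups overlapped, and the RFC1-/- embryo was higher in litter 2 and lower in the other 2 litters. The log2 difference was -0.15 with a 95% interval from -0.52 to 0.22 (adjusted p = 0.718 from limma), so a fall as large as that of Gata1 lay outside the interval and 1 as large as that of Gfi1b inside it.

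Myb was the 1 upstream factor that fell. It is needed for definitive more than for primitive red cells and is switched off as blood cells mature. Its brightest probe set measured 7.87, 7.79 and 7.25 in RFC1+/+ embryos of litters 1 to 3, and 6.59, 6.52 and 6.44 in RFC1-/- embryos. The RFC1-/- embryos lay close together and below all RFC1+/+ embryos, of which litter 3 was the lowest. Expression fell 2.17-fold (log2 difference -1.12, standard error 0.13, 95% interval -1.42 to -0.82, adjusted p = 0.00846 from limma). A dimmer Myb probe set gave 5.11, 5.64 and 5.06 against 4.25, 4.28 and 4.24, the latter under the olfactory 95th percentile, a difference of -1.01 with a limma adjusted p of 0.0147 among probe sets. Without litter 1 neither Myb probe set passed at that level (0.0832 and 0.0840). The last Myb probe set, at 3.21 to 3.41 in the 6 embryos, was at the level of olfactory probe sets and differed by -0.13.

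Tal1, the basic helix-loop-helix factor at the start of blood formation, measured 7.27, 7.25 and 7.27 in RFC1+/+ embryos. In their RFC1-/- littermates it measured 7.42, 7.47 and 7.81. All RFC1-/- embryos lay above all RFC1+/+ embryos, and litter 3 was farthest apart. The log2 difference was 0.30 (standard error 0.12, 95% interval 0.03 to 0.58), which did not pass after adjustment (adjusted p = 0.223 from limma).

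Lmo2, the bridging protein between TAL1, LDB1 and GATA1, measured 8.78, 8.31 and 9.07 in RFC1+/+ embryos and 9.19, 9.20 and 9.0 in RFC1-/- embryos. The RFC1-/- values were close together and the groups overlapped through litter 3, where the pair differed by -0.07. The log2 difference was 0.41 with a 95% interval from -0.01 to 0.83 (adjusted p = 0.284 from limma). Without litter 3 it was 0.65 with an adjusted p of 0.0386. The adjusted p was 0.610 without litter 1 and 0.724 without litter 2.

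Ldb1, the dimerizing cofactor that joins distant elements to globin promoters, is used in many tissues besides blood. It measured 8.0, 7.76 and 8.05 in RFC1+/+ embryos and 7.66, 8.04 and 7.43 in RFC1-/- embryos. The groups overlapped, and litter 2 moved against the others. The log2 difference was -0.23 with a 95% interval from -0.64 to 0.18 (adjusted p = 0.592 from limma).

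Bcl11a, the repressor of fetal globin that is also expressed in neurons, measured 7.11, 7.07 and 7.06 in RFC1+/+ embryos and 7.09, 6.95 and 7.16 in RFC1-/- embryos. The groups overlapped almost completely. The log2 difference was -0.01 with a 95% interval from -0.26 to 0.23 (adjusted p = 0.976 from limma). The other 6 Bcl11a probe sets had mean levels from 3.24 to 4.04, near those of olfactory receptors, and differed by -0.14 to 0.13.

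**Figure D2:**
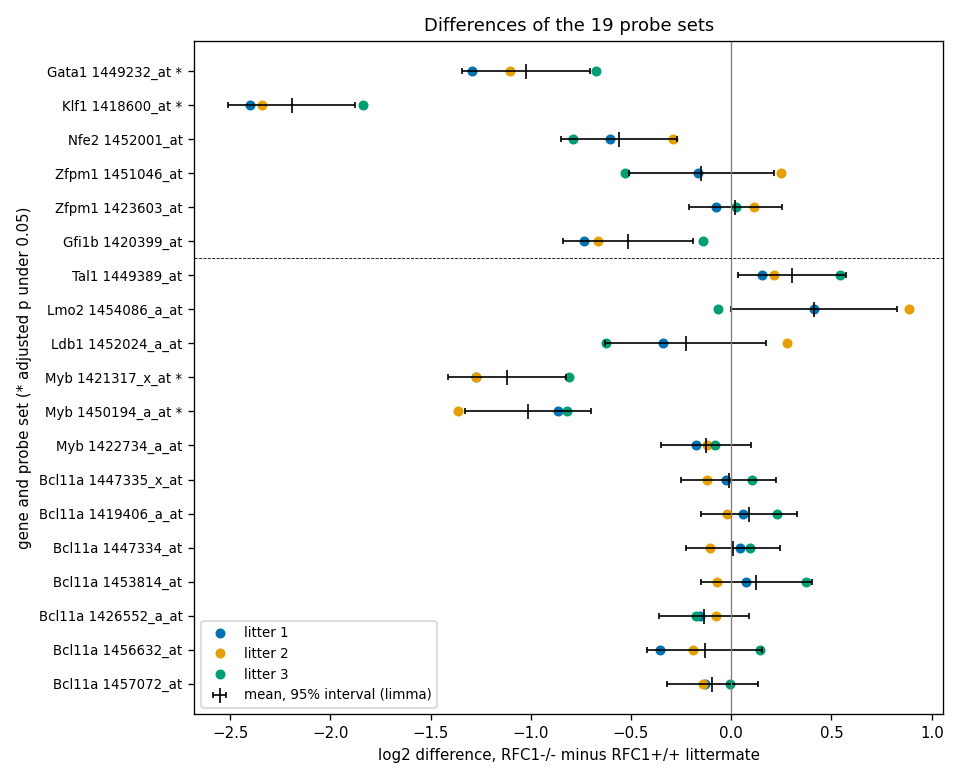
Log2 difference RFC1-/- minus RFC1+/+ littermate (horizontal axis) for each of the 19 probe sets (vertical axis), with coloured points for the 3 litters, a black tick and bar for the mean and its 95% interval from limma, and a star at an adjusted p under 0.05. The dashed line parts erythroid-restricted from upstream factors, and the 4 starred probe sets belong to Klf1, Gata1 and Myb.

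Among the 19 probe sets 9, comprising 1 of Nfe2, 1 of Zfpm1, 1 of Myb and 6 of Bcl11a, did not exceed the olfactory 95th percentile in either group mean, so little could be read from them. The filter in the study's methods keeps probe sets with at least 1 array 1.5-fold or more from the median, and 5 of the 19 passed it, among them the 4 that fell. On the 2982 filtered probe sets, a random-variance paired test rebuilt here from the methods' description called 1 member probe set, that of Klf1, at 0.001 before adjustment, against 5.13% of all filtered probe sets, and 0 after adjustment. The description leaves settings of that test open, so these are not the study's own calls. The rebuilt test called 153 of the 2982 filtered probe sets before adjustment. The study reports many more calls, both before and after adjustment. Which members pass the original test therefore cannot be read from the rebuilt counts. In the rebuilt test the adjusted p was 0.00433 for Klf1, 0.0341 for Gata1 and 0.0269 for the brightest probe set of Myb.

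The 2 groups of factors were set side by side within each litter. The median log2 difference of the 5 erythroid-restricted factors was -0.73 in litter 1, -0.67 in litter 2 and -0.68 in litter 3. For the 5 upstream factors the median was -0.03, 0.21 and -0.07. The erythroid-restricted median was thus the lower in each litter, but the ranges overlapped, since Zfpm1 differed by 0.25 in litter 2 and Myb lay at -1.27, -1.27 and -0.81. Over the litters the medians were -0.56 and -0.01, beside -0.01 for all 18194 genes. These are descriptions of 5 genes each, with no test.

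Klf1 fell further than Gata1 in each litter. The Klf1 difference was -2.40, -2.34 and -1.84 in litters 1, 2 and 3, and the Gata1 difference was -1.29, -1.10 and -0.68. The Klf1 difference minus the Gata1 difference was -1.11, -1.24 and -1.16, a spread far narrower than the differences themselves. For both factors litter 3 had the smallest difference. RFC1+/+ expression of both fell from litter 1 to litter 3, while RFC1-/- expression showed no steady order. A litter shift shared by both genes drops out of the subtraction, and a relation between the factors was not tested. The embryonic globin genes Hba-x and Hbb-bh1 were instead least reduced in litter 2, at -3.79 and -3.59, and most reduced in litter 1, at -6.48 and -5.88. The heme enzyme Alas2 followed the order of Klf1 and Gata1, at -3.22, -2.53 and -1.28. RFC1+/+ expression of Alas2 also fell over litters 1 to 3, at 8.06, 7.62 and 6.97. RFC1-/- expression of Alas2 was 4.84, 5.09 and 5.69. In litters 1 and 2 it thus lay under 5.15, the guide level from olfactory receptor genes, so the size of the Alas2 difference there is uncertain.

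**Figure D3:**
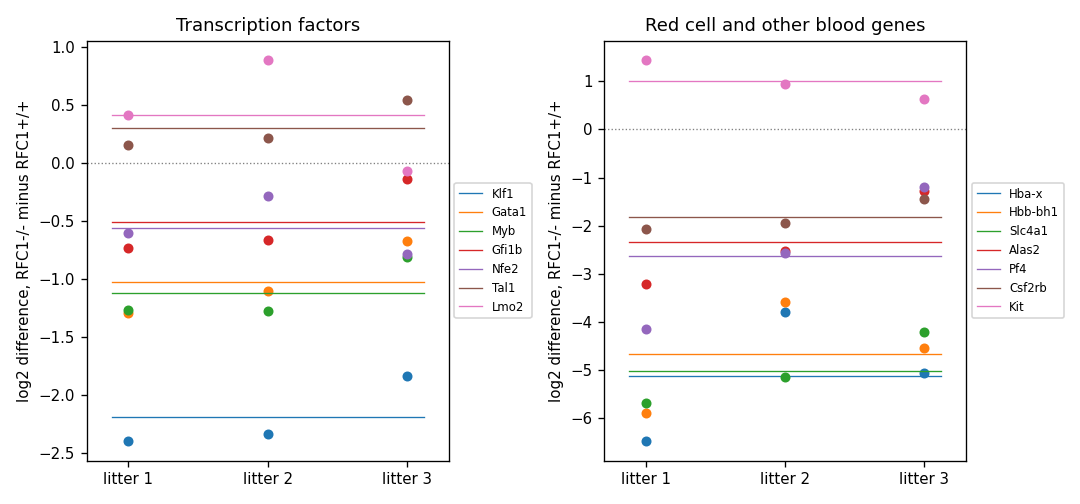
Log2 difference RFC1-/- minus RFC1+/+ (vertical axis) in each litter (horizontal axis) for 7 of the factors (left) and 7 other blood genes (right), with 1 point per gene and litter and a horizontal line at the mean of the 3 litters. Klf1 is lowest of the 7 factors in each litter, and the globin genes Hba-x and Hbb-bh1 are nearest to 0 in litter 2.

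Partner factors and cofactors of the members gave counts near those of all genes. Of 37 genes measured (other GATA, ETS and Krueppel-like factors, E proteins, small Maf proteins and the chromatin proteins that they recruit), 1 fell, 2 rose and 34 did not pass, beside 1.65% lower and 3.67% higher among all genes, and the median log2 difference was -0.05. Gata2, the progenitor GATA factor that GATA1 displaces in maturing red cells, measured 7.87, 7.84 and 7.76 in RFC1+/+ embryos and 8.19, 8.12 and 8.37 in RFC1-/- embryos. Gata2 was thus higher in every RFC1-/- embryo, without overlap, but its difference of 0.40 did not pass (adjusted p = 0.103 from limma), and its dimmer probe set differed by 0.08. Runx1, required for definitive blood stem cells, differed by -0.09, Lyl1, the close relative of Tal1, by -0.07, and Spi1, the myeloid factor that opposes GATA1, by 0.00. None of these passed.

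The partners that passed were Erg and Etv2, ETS factors of early blood and vessel progenitors, and E2f2, a cell cycle factor. In RFC1-/- embryos Erg lay 0.92 log2 units higher, or 1.89-fold (limma adjusted p = 0.00737), but a dimmer Erg probe set differed by 0.08. Etv2 was 2.07-fold higher (log2 difference 1.05, adjusted p = 0.0262), and without litter 1 its adjusted p was 0.0575. E2f2 was 1.45-fold lower (log2 difference -0.54, adjusted p = 0.0495), and it did not pass when any 1 litter was left out. Without litter 1 the partners past the threshold numbered 1, Erg, where 1.95% of all genes were called. Ikzf1, the lymphoid and erythroid zinc finger factor, depended on the probe set: the brightest, chosen by the rule, differed by 0.01 and the other by -1.39 (limma adjusted p = 0.00859 over all probe sets, no overlap), and with the mean of its probe sets Ikzf1 passed (adjusted p = 0.0298). Sox6, which acts with Bcl11a in silencing embryonic globin, was lower without overlap (-0.48, adjusted p = 0.0660).

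Among the red cell genes that GATA1 and KLF1 are known to regulate, several fell further than any of the factors. Of 34 such genes measured, 12 fell, 1 rose and 21 did not pass, beside 1.65% lower and 3.67% higher among all genes, and the median log2 difference was -0.37. Hba-x, the embryonic alpha-type globin, was the most reduced of all 18194 genes, at 12.31, 11.83 and 11.25 in RFC1+/+ embryos and 5.83, 8.04 and 6.19 in RFC1-/- embryos. The groups did not overlap, although the RFC1-/- embryos were spread widely (SD 1.18), and Hba-x expression was 34.6-fold lower, a log2 difference of -5.11 with standard error 0.43 (limma adjusted p = 0.00451). Hbb-bh1, an embryonic beta-type globin, fell 25.4-fold. Slc4a1, which exchanges anions across the membrane of red cells, measured 8.32 to 9.33 in RFC1+/+ embryos and 3.64 to 4.12, the level of olfactory probe sets, in RFC1-/- embryos. Against the olfactory 95th percentile as a floor, this brightest Slc4a1 probe set was at least 13.7-fold lower. Its log2 difference without the floor was -5.01 (limma adjusted p = 0.00161). A dimmer Slc4a1 probe set differed by -3.32, or 9.99-fold, to an RFC1-/- mean of 4.65 that is under that floor. Another, with group means of 4.17 and 4.24, differed by 0.07. Hemgn, a nuclear protein of erythroid cells, and Trim10, an erythroid RING finger protein, also lay under that floor in RFC1-/- embryos, with means of 4.04 and 5.11, and were at least 4.21-fold and 4.06-fold lower. Ermap fell to a mean of 5.01, also under the floor. Kel, counted among the 12, had both group means under it, at 5.13 and 4.14, so little could be read from Kel.

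Of the 12 that fell, the smallest difference was that of Tfrc, the transferrin receptor that all dividing cells use, which fell by 0.51. Epor, the erythropoietin receptor and a GATA1 target, differed by -0.16 with a 95% interval from -0.42 to 0.10 (adjusted p = 0.549 from limma). Tmod1, tropomodulin of the membrane skeleton and of muscle, rose by 0.52 (adjusted p = 0.0384), and it did not pass without litter 1 or without litter 2.

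**Figure D4:**
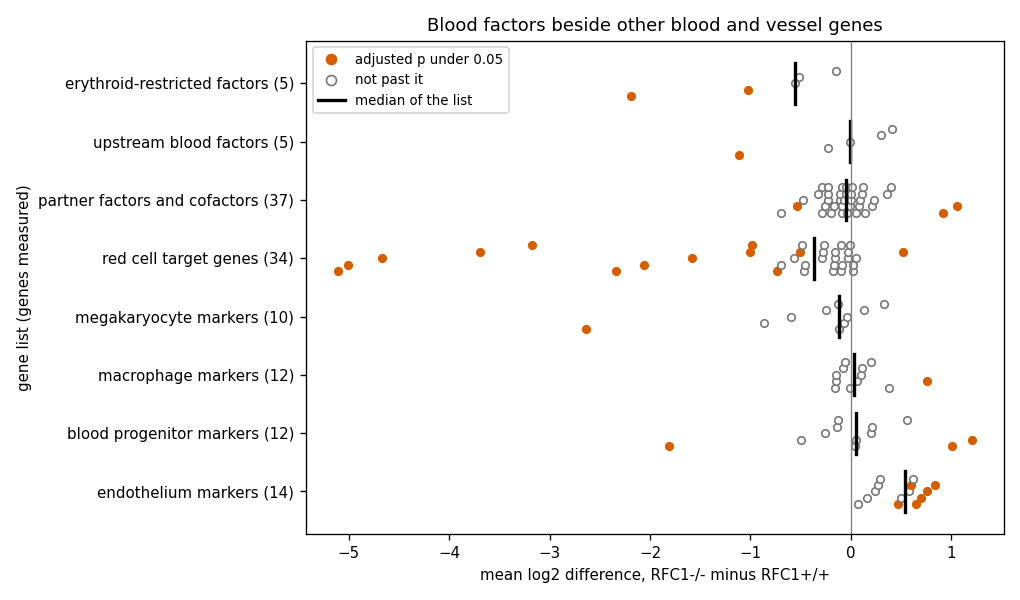
Mean log2 difference RFC1-/- minus RFC1+/+ (horizontal axis) of each measured gene in 8 lists (vertical axis, number measured in brackets), with filled points at an adjusted p under 0.05, open points for the rest and a black bar at the median of the list. The red cell target genes reach -5.11, the erythroid-restricted factors reach -2.19, and no endothelial gene lies below 0.

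Markers of other blood cells were set beside the factors because several members also act there. In these counts too, 1.65% of all genes were lower and 3.67% higher. Of 10 megakaryocyte markers 1, Pf4, a platelet chemokine, fell (log2 difference -2.64, adjusted p = 0.0283), and without litter 2 its adjusted p was 0.0514. Their summed level, the log2 of the summed linear values, was 9.13 to 10.33 in RFC1+/+ and 9.07 to 9.09 in RFC1-/- embryos. Such a sum weighs bright probe sets most, and Pf4 measured 9.41, 8.15 and 6.82 in RFC1+/+ embryos of litters 1 to 3. The other 9 megakaryocyte markers did not pass, and the median log2 difference of the list was -0.12. Of 12 macrophage markers 1 rose (Mrc1, by 0.75 from a mean of 4.81 that is under the olfactory 95th percentile, adjusted p = 0.0292, and 0.0855 without litter 2) and the summed level was 8.99 to 9.04 against 9.02 to 9.43. Of 12 markers of blood progenitors 1 fell (Csf2rb, a cytokine receptor chain, at -1.81, to a mean of 4.65 that is under the olfactory 95th percentile) and 2 rose, Hhex by 1.21 and Kit, the stem cell factor receptor, by 1.01. The other 9 did not pass, and the median log2 difference of the list was 0.05. Whether Hhex and Kit rose in blood cells or in other tissues was not tested. Kit had an adjusted p of 0.0199, which was 0.0614 without litter 1, and its dimmer probe set differed by 0.05. The pan-leukocyte gene Ptprc measured 3.88 to 4.0 in RFC1+/+ embryos, and 3.50, 3.50 and 5.38 in RFC1-/- embryos of litters 1 to 3, so that litter 3 alone passed the olfactory 95th percentile.

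Markers of endothelium, visceral endoderm and the nervous system also differed between the groups. Of 14 endothelial markers, a tissue that also expresses Tal1, Lmo2, Gata2 and Erg, 6 rose, 0 fell and 8 did not pass (Kdr by 0.84, Sox18 by 0.76 and Tek by 0.70, with Tek at an adjusted p of 0.0673 without litter 1), and their summed level was 11.67 to 11.84 in RFC1+/+ and 12.18 to 12.43 in RFC1-/- embryos. All 13 visceral endoderm markers measured, a yolk sac layer, were higher, with a median log2 difference of 3.85 (Cubn 5.15, Apoa1 5.12 and Apob 4.81) and a summed level of 11.37 to 12.66 against 14.57 to 15.93. Of 12 neural markers 9 fell and 3 did not pass (Pou3f3 at -2.19, Neurod1 at -2.07, to an RFC1-/- mean of 3.95 that is under the olfactory 95th percentile, and Neurog2 at -1.73), with a median of -1.43 and a summed level of 12.54 to 12.65 against 11.19 to 11.87. The part of these other tissues in the differences of the factors was not tested.

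The genes whose pattern was most like that of a factor over the 6 arrays were picked by Pearson correlation on brightest probe sets. For Klf1 they were Eif4e (r = 0.999), Stmn2 (0.998), Cep89 (0.998), Slc4a1 (0.997) and Wtap (0.995). For Gata1 they were Nudt4 (0.996), Cerox1 (0.993), Tex13b (0.993), 4921531C22Rik (0.990) and Stum (0.988). With 6 arrays in 2 separate groups, such values mostly describe the gap between the groups. The neuronal gene Stmn2, which fell by 1.55, came before the red cell gene Slc4a1 in the order for Klf1.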

How the data were processed

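RNA of 6 whole embryos (embryonic day 9.5, 3 RFC1-/- and 3 RFC1+/+) was hybridized to Affymetrix mouse whole-genome arrays after 2 cycles of labelling. The authors deposited log2 expression values made with RMA, that is background correction of perfect match probes, quantile normalization and median polish, with software versions not given in the sources used here. Quantile normalization gives all arrays 1 distribution, so differences are relative to it. Arrays give no read depth, and their number limits the precision. All 45101 probe sets were present and 0 columns of values were left unused. Groups and litters came from the sample labels, and the design text states that each pair shares a litter.

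RFC1-/- embryos were compared with RFC1+/+ littermates in limma 3.58.1 (R 4.3.3), with litter as a block, 2 residual degrees of freedom and moderated variances. Benjamini-Hochberg adjustment ran over all 45101 probe sets, or over 18194 genes on their brightest probe sets. Called means an adjusted p under 0.05, two-sided. The platform annotation gave 34958 probe sets 1 symbol, 932 several and 9211 none, and all 10 members matched the RefSeq table. Deviations of littermates from their group means correlated at 0.10, -0.05 and -0.15. Steps were tested on simulated data. Tables were made in Python 3.11.15 (pandas 2.3.3, numpy 2.4.6) and plots in matplotlib 3.10.9.

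Members and lists were chosen with earlier results of these data known. Named genes were all members, up to 3 members of each list past the threshold with the largest difference and those against the direction of most, and the 5 genes most correlated with Gata1 and with Klf1. Runx1, Lyl1, Spi1, Gata2, Sox6, Ikzf1, Tfrc, Epor, Alas2, Hemgn, Trim10, Ermap, Kel and Ptprc were named outside that rule, after their values were seen. List genes with no probe set of their own symbol (8 red cell, 2 megakaryocyte, 1 endoderm) were not analysed here. Alternatives were no replicate block, an intensity trend, a second quantile normalization, median centring, dim probe sets left out, the mean over probe sets of 1 gene, each litter left out, and the methods' filter with a random-variance paired test rebuilt from their description. Embryo sex as a covariate was added after seeing the data.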

Additional observations from a re-analysis of the deposited data

How the results depend on the processing

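Klf1, Gata1 and Myb were called at gene level in all 10 alternatives, with highest adjusted p-values of 0.00564, 0.0466 and 0.0285 from limma. Over the 10 members and their alternatives, 88 values kept direction and side of the threshold, 9 newly passed it, 0 lost it and 2 changed sign, both of members not called: Bcl11a ranged from -0.073 to 0.039 and Zfpm1 from -0.35 to 0.042 as each litter was left out. Direction was fixed in advance without the block, with an intensity trend, with dim probe sets left out and with sex as a covariate. In those fits the log2 difference cannot change, and only the adjusted p can. The same holds for the mean of probe sets in genes with 1 probe set. Without the replicate block, Nfe2 passed (adjusted p = 0.0277) and the partners called rose from 3 to 5 (6.35% of all genes); the block changed no other call among the members. Littermates' deviations from their group means correlated at only 0.10, -0.05 and -0.15 in litters 1, 2 and 3. With sex as a covariate, chosen after seeing the data and leaving 1 residual degree of freedom, 6 member genes and 6 partners passed (Nfe2, Gfi1b and Lmo2 were added among members), while calls over all genes went from 5.32% to 9.87%. Nfe2 also passed with an intensity trend (0.0342) and with the mean of probe sets (0.0485). Leaving out 1 litter gave 3 to 5 member genes, 1 to 5 member probe sets, 1 to 3 partners and 9 to 17 red cell genes. Of all genes, 1.95% were called without litter 1, 4.14% without litter 2 and 6.59% without litter 3, against 5.32% with all litters. With a litter left out, the matching shares of all probe sets were not counted. The lowest count of probe sets came without litter 1, where only Klf1 passed and Gata1 had an adjusted p of 0.109 over all probe sets. Under the methods' variation filter, 2 of 5 member probe sets passed limma (Klf1 and 1 of Myb, with Gata1 at 0.0509). The share of all filtered probe sets that passed limma was not counted, so nothing stands beside this count. With fewer probe sets tested, the rebuilt random-variance test at 0.001 gave 1 before adjustment, where 5.13% of the 2982 filtered probe sets passed. After adjustment it gave 0. That rebuilt test called far fewer probe sets than the study reports, so it does not show which members the original test calls. Low signal limits what the 9 member probe sets at the olfactory level can show, Nfe2 among them, and the number of litters limits all values. The causes of these shifts were not tested.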
